A study of Mus musculus with 9 samples.

Results

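The genes of sterol synthesis, SREBP control and cholesterol export, 30 of the 21853 genes in the deposited tables, were followed across 3 groups of mouse brain libraries. They were taken from a list of named genes, with the condition that each reached a normalized read count of at least 10 in 3 or more libraries, and all 30 met it. Of these, 19 encode enzymes that build cholesterol, 6 control the pathway or move sterol inside the cell, and 5 serve cholesterol export, turnover and sterol sensing. The study sequenced poly(A) RNA from 9 brain libraries, 3 per group, in a design that delivered a virus to the striatum. The WT-Control group was wild type and received pAAV-GFAP(pro)-Control-mCherry, an adeno-associated virus that expresses the red fluorescent protein mCherry from the GFAP promoter. The HD-Control group consisted of N171-82Q mice, which carry a fragment of mutant human huntingtin, and received the same control virus. The HD-WNT5B group consisted of N171-82Q mice that received pAAV-GFAP(pro)-WNT5B-P2A-mCherry, which adds the secreted ligand WNT5B. All 3 groups therefore carried a GFAP-promoter virus with mCherry, and no uninjected group was analysed here. The GFAP promoter restricts expression mainly to astrocytes, while the RNA came from tissue with all of its cell types. The labels used here give the tissue only as brain and state no age or sex and not whether each library came from a separate animal, so p-values measure only the spread between libraries.

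Cholesterol does not cross from the blood into the brain in useful amounts, so brain cells make their own. Acetyl-CoA is condensed to mevalonate, converted to isoprenoid units, joined into squalene and closed to lanosterol, which a series of enzymes turns into cholesterol. When sterol is low, SCAP escorts SREBP proteins out of the endoplasmic reticulum and their cleaved form switches on the genes of synthesis; INSIG proteins hold SCAP back when sterol is high. Surplus cholesterol is sensed as oxysterols by the liver X receptors, leaves glia through the ABCA1 and ABCG1 transporters, and is hydroxylated in neurons by CYP46A1 into a form that can leave the brain. In the striatum of Huntington's disease models this pathway has been studied because mutant huntingtin has been linked to lower cholesterol synthesis.

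The HD-WNT5B libraries stood apart from the others before any gene was compared. Deposited values behave as read counts divided by 1 factor per library, and they summed to 54.6 to 54.7 M in WT-Control, 55.6 to 55.8 M in HD-Control and 79.9 to 83.8 M in HD-WNT5B. The smallest step between values put the depth at an estimated 67.8 to 77.8, 69.8 to 90.7 and 37.3 to 52.1 M reads, and 17027 to 17132, 17223 to 17349 and 14291 to 14588 genes had a value above 0. The 10 most abundant genes of a library held 3.09 to 3.11%, 3.02 to 3.06% and 6.22 to 6.75% of the summed values. The median SD on the log2 scale over the 30 sterol genes was 0.042 in WT-Control, 0.024 in HD-Control and 0.196 in HD-WNT5B. Wnt5b itself had normalized counts of 74.6, 63.8 and 57.6 in WT-Control, 63.8, 44.2 and 49.2 in HD-Control and 184, 22.5 and 212 in HD-WNT5B, so HD-WNT5B replicate 2 was below every control library. Its log2 change against HD-Control was 0.88 (SE 0.73, limma adjusted p = 0.298), and whether this mouse gene's count includes reads of the viral transcript was not tested. Markers of striatal projection neurons were present in every library, with summed normalized counts of 364682 to 367800, 369626.0 to 374058 and 338954 to 354092.

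In the HD-Control libraries more sterol genes fell than rose against WT-Control, with Hmgcs1, Msmo1, Sqle and Ebp among those that fell and Fdft1, Lss, Srebf1, Abca1 and Abcg1 rising. Changes are log2 differences of the normalized count plus 3, tested with limma over 15411 genes, and a gene is said to rise or fall where its Benjamini-Hochberg adjusted p was below 0.05. Of the 30 genes, 11 fell (36.7%, against 20.7% of all genes tested), 5 rose (16.7%, against 24.5%) and 14 did not pass. The share called in either direction was 53.3%, against 45.1% of all genes. The median log2 change was -0.31 over the 30 genes and 0.02 over all genes. For 27 of the 30 genes the 3 HD-Control values did not overlap the 3 WT-Control values, 19 of them lower and 8 higher, where 84% of all genes tested had no overlap, 40.4% lower and 43.6% higher. The fit pools the spread of all 9 libraries, which the HD-WNT5B group widens: with 1 variance weight per group, 18 sterol genes fell and 8 rose, against 39.9% and 43.1% of all genes (82.9% in either direction), and 19 fell and 8 rose when only these groups were fitted, against 40.2% and 43.5% of all genes. When any 1 of the 6 control libraries was left out, 3 rose, against 19.1 to 19.9% of all genes, and 10 to 11 fell, against 15.8 to 16.4%. Under upper-quartile scaling 3 rose and 13 fell, against 20.8% and 24.3%. Lower RNA per cell and fewer cells of a type cannot be told apart in tissue RNA.

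Of the 6 genes of the first steps, from acetyl-CoA to isopentenyl units, 4 fell and none rose (66.7% and 0%, against 20.7% and 24.5% of all genes tested). Hmgcs1, the cytosolic synthase that makes HMG-CoA, had normalized counts of 12352, 12665 and 12977 in WT-Control and 7086, 6740.4 and 6815 in HD-Control. All 3 HD-Control libraries lay well below all 3 WT-Control libraries, at 54.3% of the mean (log2 change -0.88, SE 0.05, limma adjusted p = 3.3e-06). The antisense gene Gm48342 covers 12.1% of the exon bases of Hmgcs1. Idi1, the isomerase that balances the isoprenoid units, went from 578, 621 and 636 to 375, 352 and 320.1, again with no overlap (log2 change -0.81, limma adjusted p = 0.0131). The Idi1 call was lost without WT-Control replicate 2, WT-Control replicate 3 or HD-Control replicate 3 (limma adjusted p = 0.054 to 0.0603). Acat2, the cytosolic thiolase at the start of the path, fell by a smaller step, from 2054 ± 68.3 to 1659 ± 17.3 (SD, n = 3), and its value is uncertain because it has a near copy, Acat3, and how reads of the pair were divided is not given in the sources used here. Acat3 had log2 changes of -1.04 here and 0.42 in HD-WNT5B against HD-Control (limma adjusted p = 0.00323 and 0.0888). Pmvk, phosphomevalonate kinase, fell from 1136 ± 35.4 to 914 ± 17.7 (limma adjusted p = 0.00271). Mvd, the decarboxylase that follows, was at 918, 863 and 915 against 604, 589.9 and 594, without overlap but with limma adjusted p = 0.0764. Mvk, mevalonate kinase, had 701, 745 and 655 against 773, 800.1 and 764 (log2 change 0.16, limma adjusted p = 0.178). Mvd and Mvk passed with a weight per group (limma adjusted p = 2.1e-09 and 0.00214).

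The squalene steps split. Sqle, squalene epoxidase, the oxygen-requiring step, fell from 2370.3, 2406 and 2303 in WT-Control to 1377, 1394 and 1413 in HD-Control (log2 change -0.76, SE 0.07, limma adjusted p = 3.6e-05). The genes of the enzymes on either side of it rose. Fdft1, squalene synthase, which commits isoprenoids to sterols, rose from 3453, 3488 and 3580.3 to 5774, 5651 and 5752, a 1.63-fold higher mean with no overlap (log2 change 0.71, limma adjusted p = 8.3e-06). Ctsb lies on the opposite strand and covers 18.3% of the exon bases of Fdft1, and the library kit does not mark strand, so reads in that stretch cannot be assigned to one of them; Ctsb had a log2 change of 0.15 (limma adjusted p = 0.0696) here. Lss, lanosterol synthase, rose from 2004, 1983 and 2002 to 3407, 3239 and 3372 (log2 change 0.74, SE 0.25, limma adjusted p = 0.0403). The call was lost when any 1 of the 6 control libraries was left out (limma adjusted p = 0.0901 to 0.104) and under upper-quartile scaling, while the log2 change stayed at 0.67 to 0.76 in these fits and passed with a weight per group (limma adjusted p = 1.2e-11). Fdps, farnesyl diphosphate synthase, had a log2 change of -0.18 and Ggps1, which opens the branch to geranylgeranylated proteins, one of 0.01, and neither passed the test (limma adjusted p = 0.126 and 0.926). Fdps passed with a weight per group (limma adjusted p = 7.1e-06).

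Among the 8 enzymes from lanosterol to cholesterol, 4 fell and none rose (50% and 0%, against 20.7% and 24.5% of all genes tested). Msmo1, the sterol methyl oxidase, showed the lowest log2 change of the 30 genes. Its normalized counts were 4814, 4708 and 4944 in WT-Control and 2099, 2132 and 2008 in HD-Control, a mean of 43.1% of the WT-Control mean with all 3 libraries far below (log2 change -1.21, SE 0.05, limma adjusted p = 7.4e-07). Ebp, the sterol isomerase, went from 712, 679 and 727 to 460.0, 464 and 465, and Sc5d, the desaturase that acts after it, from 3532, 3698 and 3910.1 to 2415, 2363 and 2406. Both fell without overlap (log2 changes -0.61 and -0.63, limma adjusted p = 0.00022 and 0.00438). Cyp51, the lanosterol demethylase, fell to 70.7% of the WT-Control mean (limma adjusted p = 0.00048). Dhcr7, the reductase of the last step in one branch, stood at 1515, 1517 and 1478 against 916, 826 and 859, or 57.7% in mean, with no overlap. It did not pass in the pooled fit (log2 change -0.79, SE 0.42, limma adjusted p = 0.164), where the spread of the HD-WNT5B libraries entered its error, and it passed with a weight per group (limma adjusted p = 2.7e-09) and without HD-WNT5B replicate 1 (limma adjusted p = 0.000236). Tm7sf2 and Nsdhl were lower and Hsd17b7 was higher without passing (log2 changes -0.41, -0.44 and 0.35). Each passed with a weight per group (limma adjusted p = 6.7e-06, 9.1e-07 and 9.8e-06), where 82.9% of all genes passed. Summed over the 19 synthesis enzymes, normalized counts were 47023 to 48366 in WT-Control and 36953 to 37655 in HD-Control, and Hmgcs1 supplied 26.3 to 26.8% and 18.2 to 18.8% of that sum.

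**Figure D1:**
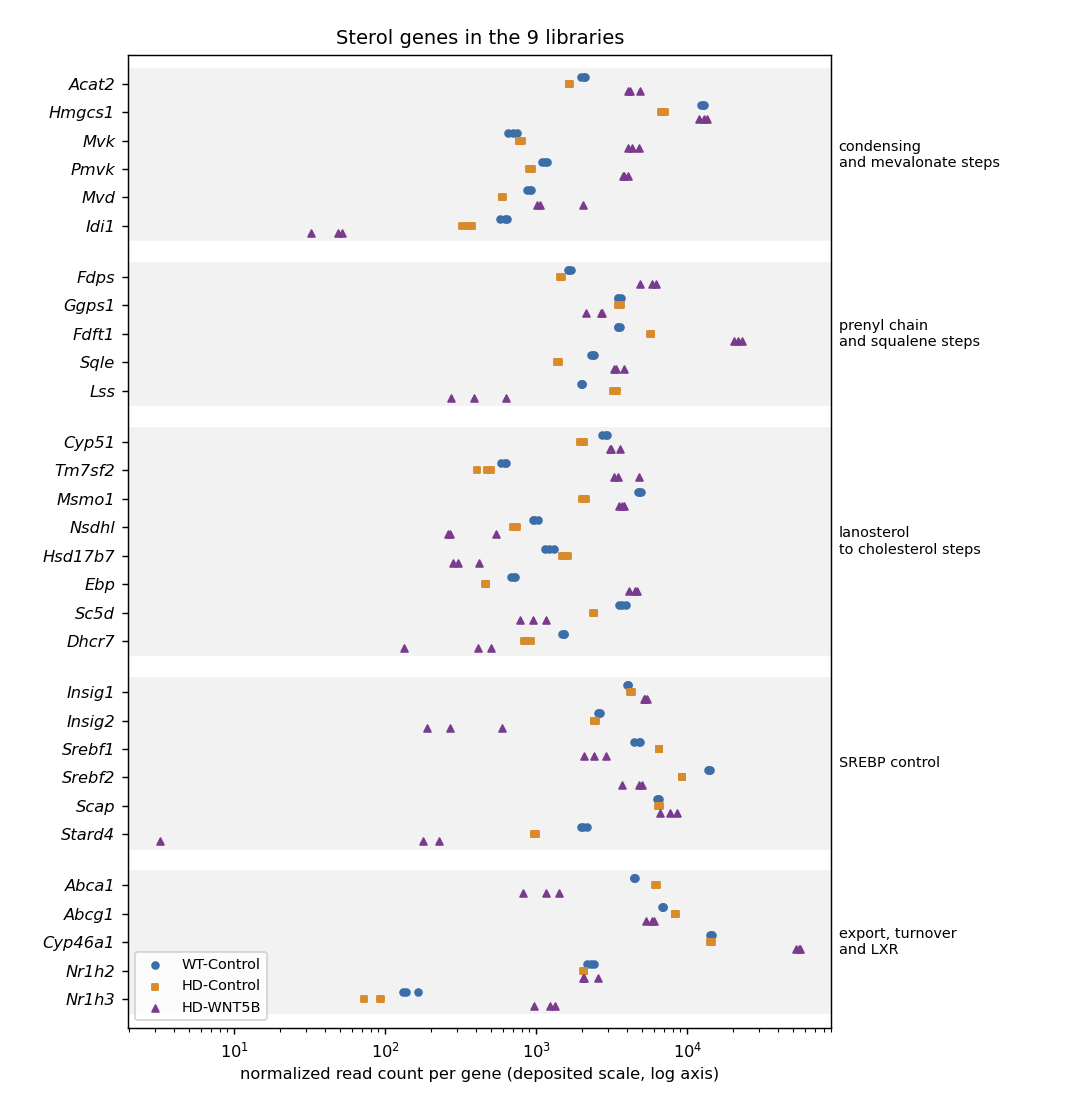
Normalized read counts of the 30 sterol genes on a log axis, 1 symbol per library (WT-Control circles, HD-Control squares, HD-WNT5B triangles), with genes in pathway order. HD-Control squares lie left of the WT-Control circles for most synthesis enzymes, and the HD-WNT5B triangles lie far to both sides, from Ebp on the right to Idi1, Lss and Stard4 on the left.

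Because SREBP proteins act through short promoter elements together with the factor NF-Y, the bases upstream of 6 synthesis and control genes are shown, chosen to cover members that fell in HD-Control (Hmgcs1, Idi1, Msmo1, Ebp), one that rose (Lss) and one that did not pass (Insig1). Each line is the 250 bases before the annotated start of the gene, from RefSeq on build GRCm38.p6, read 5′ to 3′ on the gene's strand. Capitals mark the NF-Y box, CCAAT or its reverse complement ATTGG, and in Hmgcs1 also TCACCCCAC, a match to the looser sterol regulatory element TCACNCCAC. The positions are chr13:119690101-119690350 on the plus strand for Hmgcs1, chr13:8885356-8885605 on the plus strand for Idi1, chr8:64733579-64733828 on the minus strand for Msmo1, chrX:8193513-8193762 on the minus strand for Ebp, chr5:28071162-28071411 on the plus strand for Insig1 and chr10:76531355-76531604 on the plus strand for Lss.
Hmgcs1: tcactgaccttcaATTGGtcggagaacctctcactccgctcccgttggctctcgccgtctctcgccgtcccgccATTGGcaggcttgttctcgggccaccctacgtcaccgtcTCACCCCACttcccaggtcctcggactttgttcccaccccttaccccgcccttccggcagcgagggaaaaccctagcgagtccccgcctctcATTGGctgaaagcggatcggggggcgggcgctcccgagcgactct
Idi1: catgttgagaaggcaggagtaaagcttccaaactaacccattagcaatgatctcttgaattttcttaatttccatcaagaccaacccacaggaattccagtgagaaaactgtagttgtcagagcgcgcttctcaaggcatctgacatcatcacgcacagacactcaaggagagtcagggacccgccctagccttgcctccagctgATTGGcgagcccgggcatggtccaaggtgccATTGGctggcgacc
Msmo1: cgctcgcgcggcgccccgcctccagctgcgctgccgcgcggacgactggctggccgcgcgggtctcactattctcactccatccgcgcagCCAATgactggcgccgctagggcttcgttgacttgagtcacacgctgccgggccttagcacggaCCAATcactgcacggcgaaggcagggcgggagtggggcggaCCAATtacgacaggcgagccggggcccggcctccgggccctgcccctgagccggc
Ebp: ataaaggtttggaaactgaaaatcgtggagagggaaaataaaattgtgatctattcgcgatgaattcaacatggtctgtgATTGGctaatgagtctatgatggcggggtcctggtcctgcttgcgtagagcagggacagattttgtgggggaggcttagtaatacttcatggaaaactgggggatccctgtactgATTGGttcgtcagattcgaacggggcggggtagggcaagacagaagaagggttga
Insig1: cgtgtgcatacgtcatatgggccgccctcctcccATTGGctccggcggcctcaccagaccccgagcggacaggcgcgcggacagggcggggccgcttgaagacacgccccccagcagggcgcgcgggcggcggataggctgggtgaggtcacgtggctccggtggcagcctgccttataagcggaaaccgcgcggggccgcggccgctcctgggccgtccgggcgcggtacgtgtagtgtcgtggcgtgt
Lss: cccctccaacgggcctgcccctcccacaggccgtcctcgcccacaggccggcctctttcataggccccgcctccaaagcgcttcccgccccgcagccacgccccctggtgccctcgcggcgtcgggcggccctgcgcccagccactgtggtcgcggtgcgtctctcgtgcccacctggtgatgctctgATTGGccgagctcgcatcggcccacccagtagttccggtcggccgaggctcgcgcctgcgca

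The search covered both strands of 300-base windows, 250 bases before to 50 after the start, and 25 of the 30 genes matched a window. CCAAT was found in 20 of the 25 genes, against 41.1% of the 27025 genes with a window, and in 21 of their 34 windows, against 37.4% of all 32851 windows. Copies before the start numbered 0 to 3 in the 10 genes with a window that fell in HD-Control (median 1), 0 to 2 in the 3 that rose (median 1) and 0 to 5 in the 12 that did not pass (median 2). Mvk, which did not pass, held 5, Hmgcs1 and Msmo1 held 3 each, and Cyp51, Pmvk, Sc5d, Srebf2 and Lss held 1 each. Ggps1, Hsd17b7 and Insig2, which did not pass, also held 3 each, and Acat2 and Nr1h3, which fell, held 0. The looser element TCACNCCAC was found in Hmgcs1 alone among the 25 (1.44% of all genes with a window), 137 bases before its start. The stricter form, with an A before the looser element and C in place of its N, and the liver X receptor motif, a direct repeat of AGGTCA spaced by 4 bases, were found in none of the 25 (0.0999% and 0.0148% of all genes). CACGTG was found in 6 of them, Abca1, Dhcr7, Hsd17b7, Insig1, Sc5d and Scap (8.09% of all genes). These matches describe the letters of the windows, and binding was not measured.

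Of the 6 genes of SREBP control, the paired factors went opposite ways in HD-Control. Srebf2, whose protein mainly drives cholesterol synthesis, fell from 14118, 13924 and 13650.4 in WT-Control to 9201, 9205 and 9211 in HD-Control (log2 change -0.59, SE 0.10, limma adjusted p = 0.00172). Srebf1, whose protein mainly drives fatty acid synthesis, rose from 4856, 4789.7 and 4469 to 6455, 6509 and 6476 (log2 change 0.46, limma adjusted p = 0.0079). The groups did not overlap for either gene, and the ratio of Srebf1 to Srebf2 within a library was 0.327 to 0.344 in WT-Control and 0.702 to 0.707 in HD-Control. The genes that hold or escort these factors did not pass. Insig1, Insig2 and Scap had log2 changes of 0.07, -0.10 and 0.02, with 95% intervals of -0.01 to 0.15, -0.88 to 0.68 and -0.17 to 0.21. With a weight per group Insig1 passed (limma adjusted p = 0.00338). Stard4, a soluble carrier that moves cholesterol between membranes, stood at 1993, 2044 and 2175 in WT-Control and 972, 968 and 992 in HD-Control. Its HD-Control values were all below its WT-Control values by a wide margin, but the pooled error was set by the HD-WNT5B spread (SE 1.18, limma adjusted p = 0.506), and it passed with a weight per group (limma adjusted p = 6.9e-07) and without HD-WNT5B replicate 2 (limma adjusted p = 6.41e-05). Mvd and Nsdhl also passed without HD-WNT5B replicate 2 (limma adjusted p = 0.000123 and 0.000937).

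Both cholesterol transporters rose in HD-Control. Abca1, the transporter that loads cholesterol onto lipid-poor apolipoproteins, went from 4434, 4539 and 4422 to 6293, 6120.2 and 6189.6 (log2 change 0.47, SE 0.16, limma adjusted p = 0.0444), a call lost without any 1 of the 6 control libraries or HD-WNT5B replicate 2 (limma adjusted p = 0.0523 to 0.112), under upper-quartile or trimmed-mean scaling, and without a filter on low values. In these fits its log2 change was 0.40 to 0.49, and with a weight per group it passed (limma adjusted p = 2.7e-11). Abcg1, which passes cholesterol to lipoprotein particles, went from 6892, 6940.3 and 6839 to 8280.1, 8369 and 8275 (log2 change 0.27, limma adjusted p = 0.00118). Both were higher in 3 of 3 HD-Control libraries than in any WT-Control library. Nr1h3, liver X receptor alpha, fell from 165, 136 and 131 to 72.5, 92.2 and 93 (limma adjusted p = 0.0176), a call lost without WT-Control replicate 1 or HD-Control replicate 1 (limma adjusted p = 0.0753 and 0.07). Per kb of longest transcript, the WT-Control mean was 72.6 for Nr1h3 and 1146 for Nr1h2. Nr1h2, liver X receptor beta, had a log2 change of -0.15 (95% interval -0.37 to 0.06, limma adjusted p = 0.23). It passed with a weight per group (limma adjusted p = 0.00067). Cyp46a1, the neuronal cholesterol hydroxylase, did not pass, with 14598, 14378 and 14236 in WT-Control and 14225, 14465 and 14535 in HD-Control and a 95% interval of -0.07 to 0.07 for its log2 change.

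Markers of several cell types differed between the same groups, where 24.5% of all genes tested rose and 20.7% fell in HD-Control. Of 9 oligodendrocyte markers all 9 fell in HD-Control, and their summed normalized count was 269370.3 to 270504 in WT-Control and 140047 to 140579.9 in HD-Control. Of 6 astrocyte markers 5 fell, with sums of 330245 to 333884 and 211162 to 212506, and of 5 neuronal markers 3 fell, with sums of 257953 to 259250.4 and 223287 to 223917. All 5 microglial markers fell, with sums of 17652 to 17679.7 and 5086 to 5157, as did all 4 blood markers, with sums of 2863 to 2928 and 845 to 920.0. All 4 markers of cortical excitatory neurons fell too, with sums of 21563 to 22314 and 9028.5 to 9076. Of 8 striatal projection neuron markers 5 fell and 3 rose. The list of oligodendrocyte precursors had 2 of 3 lower, and those of endothelium and of meninges and fibroblasts 2 of 4 each, while none of 5 choroid plexus markers passed. Kcnj13 and Aqp1 of the choroid plexus and Dcn and Lum of the meninges were at 0 in at least 1 of the 9 libraries, and no other marker was. Their part in the changes of the sterol genes was not tested.

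**Figure D2:**
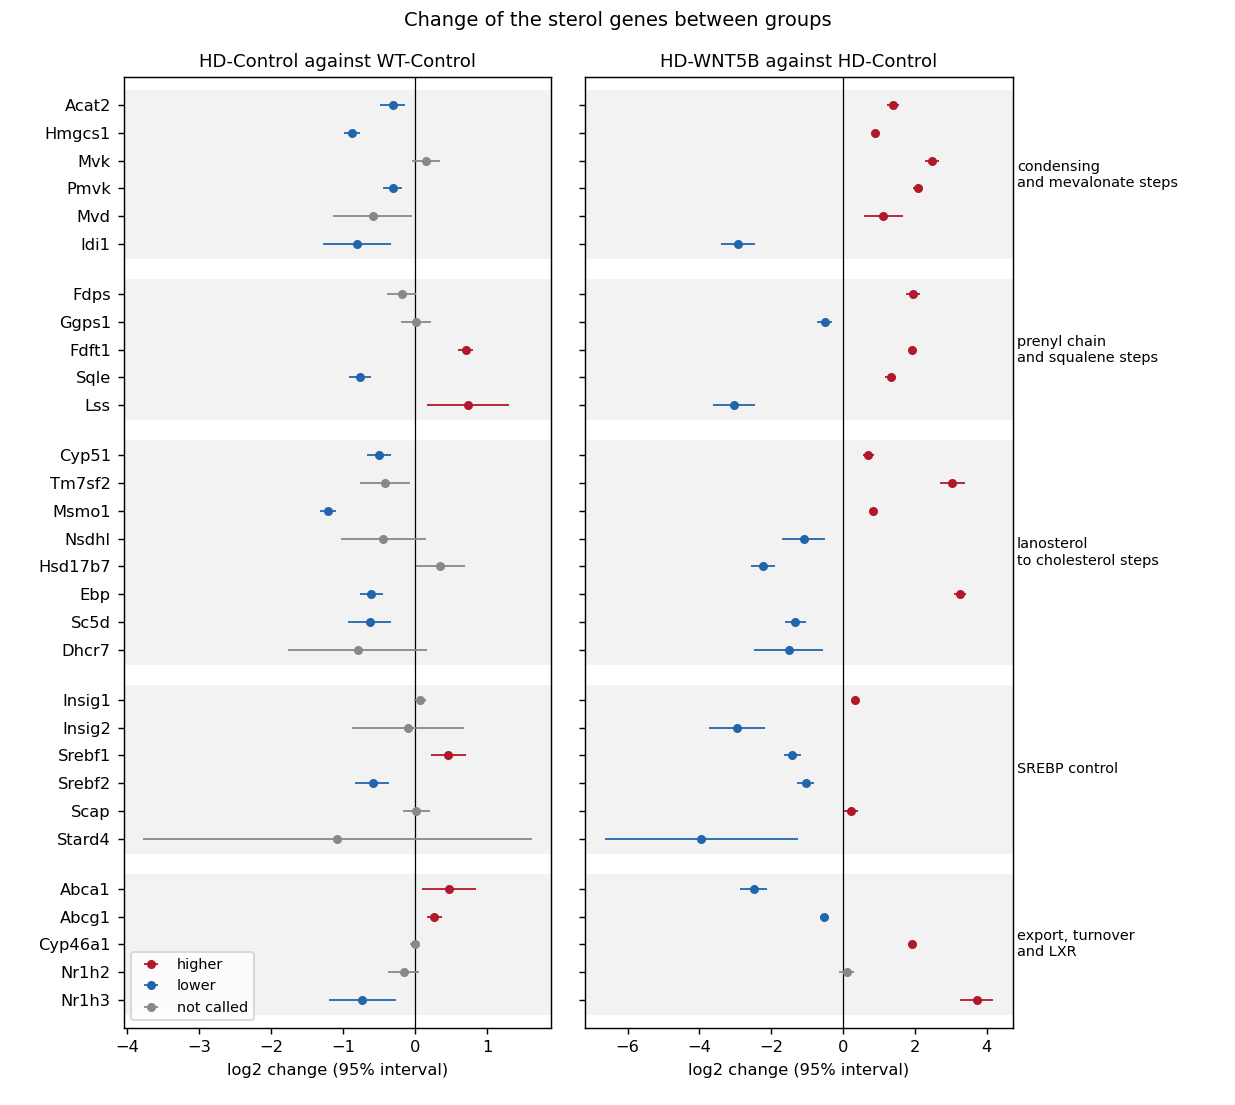
Log2 change of each sterol gene with its 95% interval from limma, HD-Control against WT-Control on the left and HD-WNT5B against HD-Control on the right, with separate axis ranges. Red points rose, blue points fell and grey points did not pass an adjusted p of 0.05; in the right panel 16 are red and 13 blue, of which Insig1 and Scap turn negative when all libraries are brought to 1 total and Ggps1 and Scap change sign after a correction for transcript length and GC content.

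In the HD-WNT5B libraries nearly every sterol gene differed from HD-Control, and several neighbouring steps of the pathway moved in opposite directions. Ebp, Tm7sf2, Mvk, Pmvk, Fdps and Fdft1 had means 3.8-fold to 9.55-fold those of HD-Control, while Idi1, Lss, Insig2, Hsd17b7, Abca1 and Stard4 fell to between 12.6 and 21.4% of the HD-Control mean. Of the 30 genes 16 rose (53.3%, against 35.8% of all genes tested), 13 fell (43.3%, against 41.7%) and Nr1h2 did not pass. The share called was 96.7%, against 77.5% of all genes. The values of 28 genes did not overlap between the groups, 15 higher and 13 lower, where 78.7% of all genes had no overlap, 36.2% higher and 42.5% lower. The median log2 change was 0.27 over the 30 genes and -0.23 over all genes. The scale of the deposited values matters here: with all libraries brought to 1 total, 13 sterol genes rose (43.3%, against 25.9% of all genes) and 16 fell (53.3%, against 54.6%), and the medians became -0.28 over the sterol genes and -0.76 over all genes. The rises of Acat2, Sqle, Hmgcs1 and Msmo1 given below became 0.83, 0.77, 0.34 and 0.26 on that scale and still passed.

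Most early enzymes rose (5 of 6, against 35.8% of all genes tested), with 1 exception. Hmgcs1 rose from 7086, 6740.4 and 6815 in HD-Control to 12014, 13589 and 12849 in HD-WNT5B (log2 change 0.90, SE 0.05, limma adjusted p = 2.8e-07). Mvk went from 773, 800.1 and 764 to 4804, 4294 and 4038, and Pmvk from 931, 914 and 896 to 3762, 3797 and 4049. All HD-WNT5B libraries lay several-fold above all control libraries for both kinases (log2 changes 2.48 and 2.08, limma adjusted p = 1.6e-08 and 5e-09). Acat2 rose from 1659 to 4863, 4171 and 4027, and Mvd to 1012, 2042 and 1059, where replicate 2 was the highest and all 3 lay above HD-Control. Mvd (limma adjusted p = 0.00236) lost its call after a correction for transcript length and GC content (limma adjusted p = 0.643). Idi1 was the exception, with 375, 352 and 320.1 in HD-Control and 48.3, 32.1 and 51.5 in HD-WNT5B, a 7.94-fold lower mean (log2 change -2.93, limma adjusted p = 1.8e-06). Within a library Hmgcs1 exceeded Idi1 by 20.4 to 21.4 times in WT-Control, 18.9 to 21.3 in HD-Control and 249 to 423 in HD-WNT5B, a ratio that does not depend on the scale of the library.

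At the squalene steps Fdft1 and Lss, which had risen side by side in HD-Control, parted. Fdft1 went from 5774, 5651 and 5752 in HD-Control to 20477, 21586 and 23155 in HD-WNT5B (log2 change 1.92, SE 0.05, limma adjusted p = 1.8e-09). Its antisense neighbour Ctsb rose as well, with 38292 to 38744 in HD-Control and 92938 to 112096 in HD-WNT5B (log2 change 1.41, limma adjusted p = 5.4e-08), and the share of the Fdft1 count that belongs to Ctsb was not tested. Lss went from 3407, 3239 and 3372 to 629.6, 272 and 388 (log2 change -3.03, SE 0.25, limma adjusted p = 4.9e-06), with replicate 1 the highest and every replicate below every control library. The Fdft1 to Lss ratio was 1.72 to 1.79 in WT-Control, 1.7 to 1.75 in HD-Control and 32.5 to 79.5 in HD-WNT5B. Fdps rose 3.86-fold to 4844, 5839.7 and 6244 (limma adjusted p = 9.5e-08). Gm43738 overlaps 26.7% of the exon bases of Fdps and had 278, 54.1 and 0.004938 in HD-WNT5B. Sqle rose from 1377, 1394 and 1413 to 3391, 3275 and 3836 (log2 change 1.32, limma adjusted p = 1.6e-07). Ggps1 fell to 70.6% of the HD-Control mean (log2 change -0.51, limma adjusted p = 0.0008), and after the length and GC correction its difference was 0.26 instead. Fdft1 supplied 7.3 to 7.4% of the summed enzyme counts in WT-Control, 15.3 to 15.5% in HD-Control and 27.2 to 28.8% in HD-WNT5B.

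The 8 enzymes after lanosterol divided evenly, 4 rising and 4 falling (50% each, against 35.8% and 41.7% of all genes tested). Ebp rose from 460.0, 464 and 465 in HD-Control to 4498, 4621 and 4143 in HD-WNT5B, 9.55-fold in mean (log2 change 3.25, SE 0.07, limma adjusted p = 1.2e-09). After the length and GC correction the log2 change was 2.64 for Ebp and 3.05 for Tm7sf2, so the order of these enzymes depends on it. Sc5d, which acts on the product of Ebp, fell from 2415, 2363 and 2406 to 774, 956 and 1169 (log2 change -1.33, limma adjusted p = 1.6e-05). The Ebp to Sc5d ratio was accordingly 0.184 to 0.202 in WT-Control, 0.191 to 0.196 in HD-Control and 3.54 to 5.81 in HD-WNT5B. Tm7sf2, a sterol reductase, rose from 408, 500.2 and 474 to 3249, 3477 and 4798 (log2 change 3.04, limma adjusted p = 1.8e-07). Vps51 overlaps 12.1% of the exon bases of Tm7sf2. Msmo1 recovered from 2079.9 to 3792, 3513 and 3706, still short of the lowest WT-Control library. Cyp51 rose from 2015 to 3589.8, 3123 and 3096 (log2 change 0.69), but with all libraries brought to 1 total the change was 0.14 (limma adjusted p = 0.0943). Hsd17b7, a ketosteroid reductase of the demethylation complex, fell from 1488, 1634 and 1547 to 415, 305 and 281 (log2 change -2.23, limma adjusted p = 1.1e-06). Nsdhl, its partner dehydrogenase, had 259, 543 and 268, and Dhcr7 had 132, 503 and 409.6, so single libraries differed more than 2-fold within the group for both, although every value was below every HD-Control value. Without HD-WNT5B replicate 1 the log2 change of Dhcr7 was -0.93 in place of -1.51.

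The control genes changed with large differences between near relatives. Insig1 rose slightly on the deposited scale, from 4248, 4154 and 4304 to 5203, 5429 and 5269 (log2 change 0.32, limma adjusted p = 3e-05), and turned to -0.23 with all libraries brought to 1 total. Insig2, which shares its SCAP-retaining role, fell from 2415, 2419 and 2476 to 592, 189.5 and 268 (log2 change -2.96, SE 0.34, limma adjusted p = 4.8e-05). The Insig1 to Insig2 ratio was 1.51 to 1.56 in WT-Control, 1.72 to 1.76 in HD-Control and 8.79 to 28.6 in HD-WNT5B. Srebf1 fell from 6480.2 to 2908, 2409 and 2065 and Srebf2 from 9206 to 5037, 4816 and 3673, each below every control library (log2 changes -1.41 and -1.04, limma adjusted p = 2.9e-06 and 1.7e-05). Scap, the escort of SREBP, overlapped HD-Control, with 6622, 8616 and 7716 against 6378, 6544 and 6627. Its rise (log2 change 0.22, limma adjusted p = 0.0342) was lost with a weight per group and in 8 of 9 fits that left out 1 library, all but that without HD-WNT5B replicate 1. It became 0.13 without HD-WNT5B replicate 2 and -0.33 at equal totals. Another annotated gene covers 13.2% of the exon bases of Scap. Stard4 had 179, 3.21 and 225: replicate 2 was near the value of 2 reads, and the other replicates were far below HD-Control (log2 change -3.95, 95% interval -6.64 to -1.25, limma adjusted p = 0.0136). Without replicate 2 its log2 change was -2.27 (limma adjusted p = 5.37e-07).

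**Figure D3:**
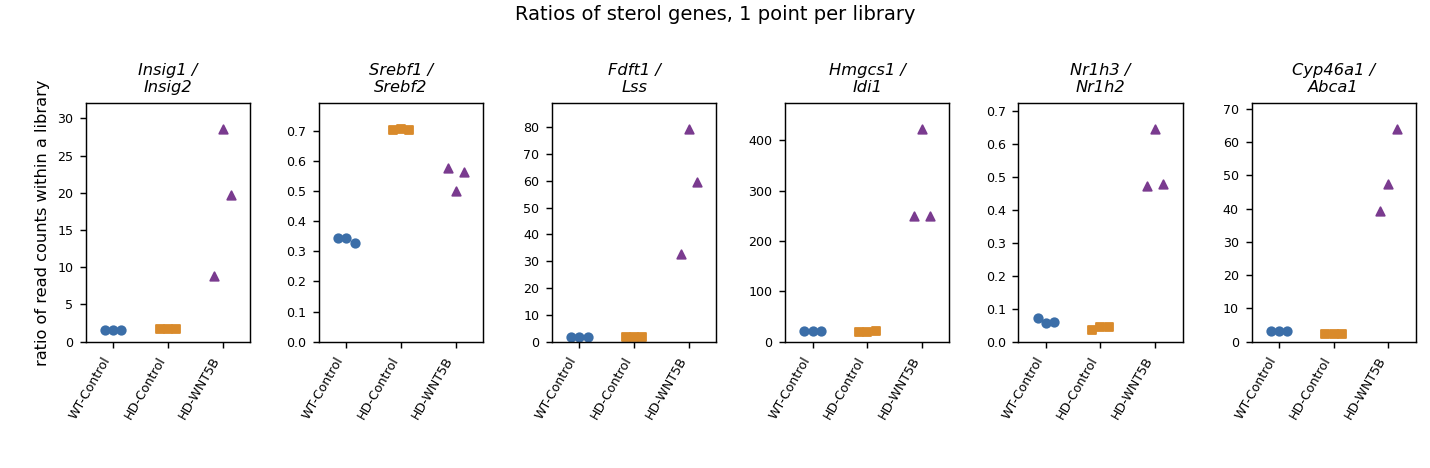
Ratio of normalized read counts of 6 gene pairs within each library, 1 point per library, each panel with its own linear axis from 0. Fdft1 to Lss and Hmgcs1 to Idi1 are alike in the control groups and many-fold higher in HD-WNT5B, while Srebf1 to Srebf2 is highest in HD-Control at 0.702 to 0.707.

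In the export group Cyp46a1 and Nr1h3 rose and both transporters fell. Cyp46a1 had 14225, 14465 and 14535 in HD-Control and 55432, 54788 and 52454 in HD-WNT5B, 3.76-fold in mean (log2 change 1.91, SE 0.03, limma adjusted p = 1.6e-10). Over the same groups the summed counts of 5 neuronal markers were 223287 to 223917 and 78060.4 to 90356, with 2 of the 5 rising and 3 falling; their part in the Cyp46a1 change was not tested. Abca1 fell from 6293, 6120.2 and 6189.6 to 1413, 1153 and 819 (log2 change -2.49, SE 0.16, limma adjusted p = 1.1e-06), below every control library. Abcg1 fell by less, from 8308 to 5983, 5349 and 5819.9 (log2 change -0.54, limma adjusted p = 4.2e-06). Nr1h3 rose from 72.5, 92.2 and 93 to 959, 1332 and 1229 (log2 change 3.72, SE 0.20, limma adjusted p = 2.9e-07). This was the highest log2 change of the 30 genes on the deposited scale, and after the length and GC correction it was 2.93, below that of Tm7sf2. Nr1h2 did not pass on the deposited scale (log2 change 0.10, 95% interval -0.12 to 0.31). It passed as lower at equal totals (log2 change -0.46, limma adjusted p = 0.00303) and after the length and GC correction (-0.83, limma adjusted p = 4.29e-06). The Nr1h3 to Nr1h2 ratio was 0.0563 to 0.072 in WT-Control, 0.0358 to 0.0448 in HD-Control and 0.473 to 0.647 in HD-WNT5B. Per kb of longest transcript, Nr1h3 stood at 591 and Nr1h2 at 1109 in HD-WNT5B.

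Marker genes of other cell types also moved on the deposited scale, where 35.8% of all genes tested rose and 41.7% fell. Summed oligodendrocyte markers were at 140047 to 140579.9 in HD-Control and 553363 to 616720.4 in HD-WNT5B, with 6 of 9 rising and 3 falling. Summed astrocyte markers were at 211162 to 212506 and 96668 to 100135, with 4 of 6 falling and none rising. Summed endothelial markers were at 6964 to 7032 and 38080.2 to 46244, and blood markers at 845 to 920.0 and 9194 to 11455, with 3 of 4 rising in both lists. Summed cortical excitatory neuron markers were at 9028.5 to 9076 and 14865 to 16758, with 1 of 4 rising and 2 falling. Microglial markers were at 5086 to 5157 and 22403 to 26201, with 3 of 5 rising. The fibroblast marker Lum was at 0 in all HD-WNT5B libraries. Their part in the sterol changes was not tested.

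Against WT-Control, HD-WNT5B held 13 genes higher (43.3%, against 35.9% of all genes tested), 14 lower (46.7%, against 42.1%) and 3 that did not pass, a share called of 90% against 77.9%. The values of 28 genes did not overlap, 14 higher and 14 lower, where 79.4% of all genes had no overlap, 36.2% higher and 43.2% lower. With all libraries brought to 1 total the split was 9 higher and 19 lower of 30, against 25.9% and 55.6% of all genes. Hmgcs1 did not pass, at 12818 ± 788 against 12665 ± 312 (SD, n = 3), with a log2 change of 0.02 and a 95% interval of -0.09 to 0.13. Its log2 change became -0.57 at equal totals (limma adjusted p = 3.72e-06) and 0.51 after the length and GC correction (limma adjusted p = 1.63e-05). Its level relative to WT-Control therefore depends on the scale and correction used. Msmo1 remained lower than in WT-Control (log2 change -0.39, limma adjusted p = 6.1e-05), a call lost after the length and GC correction. Acat2, Pmvk, Sqle, Cyp51, Ebp and Nr1h3, which fell in HD-Control, lay above WT-Control in HD-WNT5B, of which Sqle and Cyp51 turned to -0.01 and -0.39 at equal totals. The Cyp51 call (log2 change 0.19, limma adjusted p = 0.0285) was also lost without WT-Control replicate 1 or 2 (limma adjusted p = 0.0593 and 0.104). Scap (log2 change 0.25) lost its call without any 1 WT-Control library or HD-WNT5B replicate 3 (limma adjusted p = 0.0508 to 0.0605), and Scap and Insig1 turned to -0.33 and -0.19 at equal totals. Idi1, Sc5d and Srebf2 were lower in HD-Control than in WT-Control and lower still in HD-WNT5B. Srebf2 showed this in every library, with 14118, 13924 and 13650.4 in WT-Control, 9201, 9205 and 9211 in HD-Control and 5037, 4816 and 3673 in HD-WNT5B. Fdft1 was the single gene higher at both steps, and Srebf1, Lss, Abca1 and Abcg1 were higher in HD-Control and then below WT-Control in HD-WNT5B, Abcg1 turning to 0.10 after the length and GC correction. These comparisons share libraries and are given side by side only.

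**Figure D4:**
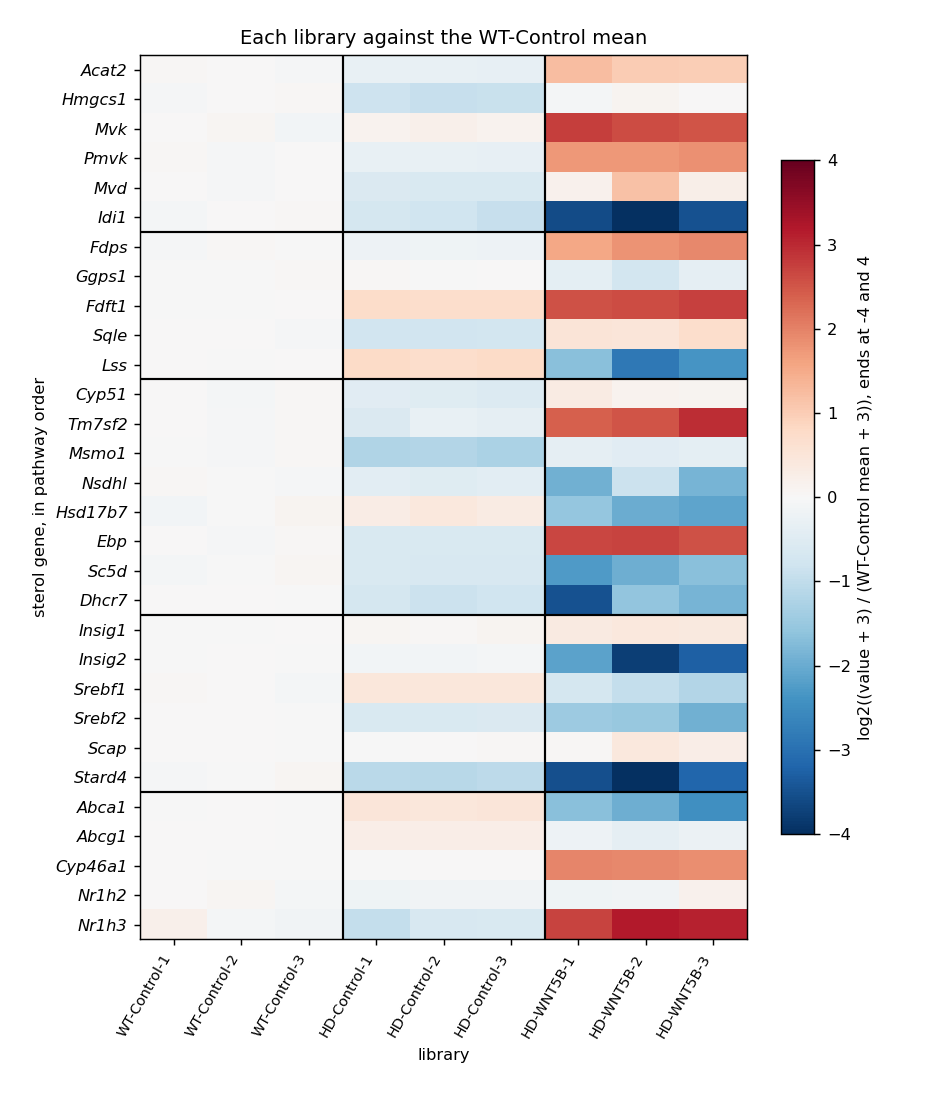
Log2 ratio of each library to the WT-Control mean for the 30 sterol genes (normalized count plus 3), rows in pathway order and columns by library, with colour ends at -4 and 4. HD-Control columns are pale and mostly blue among the synthesis enzymes, and the HD-WNT5B columns mix deep red (Ebp, Tm7sf2, Mvk, Nr1h3) with deep blue (Idi1, Insig2, Stard4). Stard4 and Idi1 in HD-WNT5B replicate 2 lie beyond the colour end.

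The direction in HD-WNT5B went with transcript length among the sterol genes and among all genes. Over the 30 genes Spearman's rho between the log2 change against HD-Control and the length of the longest annotated transcript was -0.60, and over the 15411 genes tested it was -0.35. For GC content the values were 0.40 and 0.28. These correlations run across genes that share the same libraries, so they describe the data only. The sterol genes that rose had a median length of 2.82 kb and GC content of 50.9%, and those that fell 4.61 kb and 46.0%. Short genes such as Pmvk, Ebp and Nr1h3 rose and long ones such as Lss and Abca1 fell, while Insig2 and Idi1 fell at lengths near those of risen genes. The same measure for HD-Control against WT-Control was 0.23 for length over the 30 genes and -0.05 over all genes. After a spline correction for length and GC content per library, 26 of the 30 sterol genes kept their direction and their side of the threshold in HD-WNT5B against HD-Control. The rises of Pmvk and Cyp46a1 shrank to 0.62 and 1.14, the falls of Sc5d, Abca1 and Abcg1 to -0.58, -1.58 and -0.21, and the rises of Hmgcs1 and Cyp51 grew to 1.41 and 1.14.

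**Figure D5:**
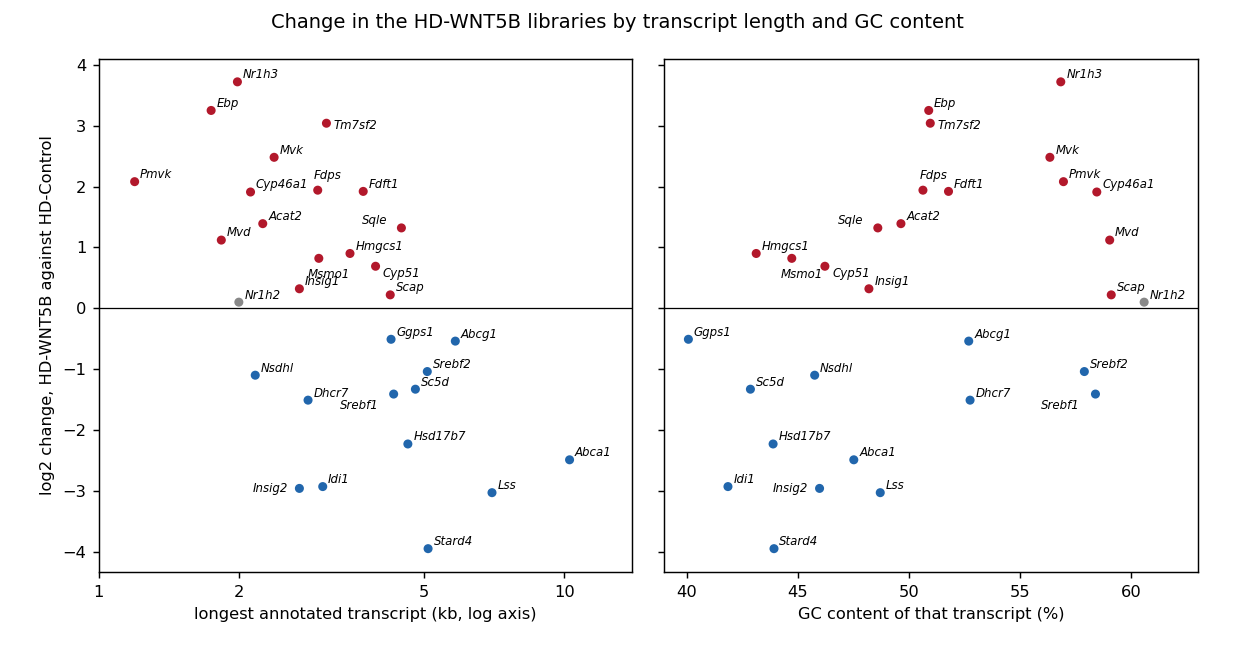
Log2 change of the 30 sterol genes in HD-WNT5B against HD-Control plotted against the longest annotated transcript (log axis, kb) and its GC content. Red genes rose, blue fell and Nr1h2 (grey) did not pass; red points gather at shorter transcripts (median 2.82 kb) and blue points at longer ones (median 4.61 kb), and the signs of Insig1, Scap and Ggps1 turn under other scaling or the length correction.

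A wider list held 93 pathway genes outside the 30, of which 92 were tested, on the deposited scale only. In HD-Control against WT-Control 28 rose (30.4%, against 24.5% of all genes), 26 fell (28.3%, against 20.7%) and 38 did not pass, with a median log2 change of -0.01 against 0.02. In HD-WNT5B against HD-Control 35 rose (38%, against 35.8%), 45 fell (48.9%, against 41.7%) and 12 did not pass, with a median of -0.30 against -0.23, shares near those of all genes. Among 16 fatty acid targets of SREBP1, 11 fell and 2 rose in HD-Control, although Srebf1 itself rose. Scd2, a stearoyl-CoA desaturase, fell from a mean of 133947 to 79894 and to 40184 in HD-WNT5B (log2 changes -0.75 and -0.99, limma adjusted p = 3.6e-07 and 1.8e-09). Fads2, a desaturase of polyunsaturated fatty acids, fell to 4783 from 8234 and stood at 8226 in HD-WNT5B. Among 13 genes of SREBP processing and turnover, 7 rose and 1 fell in HD-Control. Fbxw7, the ligase that marks nuclear SREBP for degradation, rose from 6504 to 69179 in HD-WNT5B (log2 change 3.41, limma adjusted p = 2e-11).

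Of the 92 genes, Ch25h had the largest log2 change between the control groups. Its enzyme makes an oxysterol from cholesterol, and its normalized counts were 7.74, 5.65 and 14.6 in WT-Control, 408, 401 and 446 in HD-Control and 107, 217 and 199 in HD-WNT5B. Every HD-Control library was far above every WT-Control library, where the count was near the value of a few reads (log2 change 5.16, limma adjusted p = 1.1e-05). In HD-WNT5B the values lay between the groups. Lcat, which esterifies cholesterol on lipoproteins, fell from 787 to 322, and the lysosomal esterase Lipa from 972 to 585 (limma adjusted p = 0.00013 and 0.00069). Among 13 partners and targets of the liver X receptors 4 rose and 2 fell in HD-Control (30.8% and 15.4%, against 24.5% and 20.7% of all genes). The falls were Rxrg and Pltp (log2 changes -1.37 and -1.32, limma adjusted p = 5.9e-06 and 9.4e-06). In HD-WNT5B, 14 of 20 genes of sterol uptake and movement inside cells fell and 5 rose (70% and 25%, against 41.7% and 35.8% of all genes). Among them Osbpl8, an oxysterol-binding protein at membrane contacts, went from 13699 to 3131 (log2 change -2.14). Pggt1b, a subunit of the enzyme that attaches the Ggps1 product to proteins, rose from 2542 to 18787 (log2 change 2.88, limma adjusted p = 4.7e-09).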

How the data were processed

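Poly(A) RNA of 9 mouse brain libraries, 3 per group, was compared. Per the labels' protocols, libraries were made with a NEBNext Ultra kit, which does not mark strand; STAR and build mm10 are named in the submitters' processing notes, while the counting tool, strand setting and normalization were not given in the sources used here. The authors deposited 1 table per library with a decimal signal value per Ensembl gene, here called a normalized read count. Of values above 0.3 and below 200 steps, 97.6 to 98.7% per library lay within 0.01 of a step from a whole multiple of 1 step; 60 to 92 genes per library had smaller values above 0. The values are therefore treated as estimated counts divided by 1 factor per library and not by gene length; estimated reads are the summed values divided by that step.

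Gene identifiers were matched to GENCODE M21 symbols. Values were taken as deposited, as log2(value + 3), which understates changes of low genes. Genes with at least 10 in 3 or more libraries (15411 of 21853) were tested with limma 3.58.1 in R 4.3.3, with 1 mean per group over all 9 libraries, an intensity trend and Benjamini-Hochberg adjustment over all genes tested. The scripts were tested on simulated data. The sterol genes are named in full; other pathway genes are named where they were among the 3 with the smallest p among called genes of their list and comparison with no overlap of replicates. Ctsb, Acat3, Gm43738, Gm48342 and Vps51 are named because they overlap or resemble a sterol gene. The members and lists were chosen with earlier results of these data known. Depth was 37.3 to 90.7 M estimated reads per library. Alternatives changed the scale, filter, added constant, weights, samples fitted, replicate block, and length and GC trend, and left out each library in turn. Motifs and sequences come from RefSeq promoters; Hmgcs1 is shown for its motif match, and the other 5 were chosen after their values were seen. Figures were drawn with matplotlib 3.10.9 in Python 3.11.15.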

Additional observations from a re-analysis of the deposited data

How the results depend on the processing

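Against WT-Control, the sterol genes higher in HD-Control numbered 5 in the reported fit and 3 under upper-quartile factors. They numbered 8 with a weight per group and 8 in a fit of only the 2 groups compared. Those lower numbered 11, 13, 18 and 19 in these fits. Without 1 control library 3 were higher and 10 to 11 lower, against 19.1 to 19.9% and 15.8 to 16.4% of all genes. Without 1 HD-WNT5B library the counts reached up to 6 and 15, and the matching shares of all genes are not given here. In HD-WNT5B against HD-Control, 15 to 16 were higher and 13 lower when 1 library was left out, and 13 and 16 with all libraries brought to 1 total (equal totals). Without 1 library of either group, 34.3 to 37.8% of all genes were higher and 38 to 44% lower. In HD-WNT5B against WT-Control the counts were 11 to 14 and 14 to 15 without 1 library, and 9 and 19 at equal totals. The shares of all genes without 1 library of either group were 34.6 to 37.7% and 38.6 to 44.7%. The direction reversed at equal totals for Insig1 (-0.23), Scap (-0.33) and Nr1h2 (-0.46) against HD-Control, and for Hmgcs1 (-0.57), Sqle (-0.01), Cyp51 (-0.39), Insig1 (-0.19) and Scap (-0.33) against WT-Control. After the length and GC spline it reversed for Ggps1 (0.26), Scap (-0.04) and Nr1h2 (-0.83) against HD-Control, and for Ggps1 (0.31) and Abcg1 (0.10) against WT-Control. Mvd passed against WT-Control with a weight per group (limma adjusted p = 0.0483) and without any 1 HD-WNT5B library (limma adjusted p = 0.0194 to 0.0401). It did not pass in the reported fit, at equal totals or after the spline, with log2 changes of 0.53, -0.05 and -0.47. The cause of these shifts was not tested. Over all alternatives, 541 of the sterol gene values in HD-Control against WT-Control kept their side of the threshold, 22 lost their call and 37 gained one. Small changes that passed in neither fit could change sign, such as Ggps1 from 0.01 to -0.01 at equal totals. With the replicate number as a block the counts were 5 and 11, 16 and 13, and 13 and 14, as without it, and no sterol gene changed its call. Deviations of same-numbered libraries correlated at -0.02 to 0.02, so no pairing by number was visible. The check cannot show what the numbers stand for. A planned count model was not run, because the tables also hold values that are not whole multiples of a read. The lower depth and wider spread of the HD-WNT5B libraries limit how exactly genes with low values in that group, such as Stard4 and Idi1, can be measured there.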
